A study of Mus musculus with 4 samples.

Results

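Peritoneal macrophages of 2 single-cell libraries, those whose cell barcodes end in suffix 2 and in suffix 3, were compared across all genes. Cells were taken as macrophages when they had at least 500 detected genes, at most 10% mitochondrial UMIs (unique molecular identifiers, which count captured RNA molecules), at least 2 UMIs of Adgre1, no UMI of Cd79a and none of Cd3d, Cd3e or Cd3g. Adgre1 encodes F4/80, the macrophage surface protein on which the cells had been sorted, and the other genes mark B cells and T cells. The gate held 4211 cells of library 2 and 4312 cells of library 3, together 8523 of the 26811 barcodes of the series. These were 69.9% and 81.2% of the cells that passed the limits on detected genes and mitochondrial UMIs. The Adgre1 limit fell differently on the 2 libraries. Cells with exactly 1 Adgre1 UMI, left out, numbered 533 and 178, and gated cells with exactly 2 numbered 478 and 114. The median gated cell had 6 and 12 Adgre1 UMIs. The same gate held 1531 cells of library 1 and 5000 of library 4.

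The labels describe 4 groups of mice aged 24 weeks with 1 sample each, and all groups received injections into the peritoneal cavity. They are C57 mice (wild type) on a normal diet given buffer, Apoe-/- mice on a normal diet given buffer, Apoe-/- mice given buffer after 20 weeks of a high-fat diet (21% fat, 0.15% cholesterol) begun at an age of 4 weeks, and Apoe-/- mice given 3 mg of anti-CVI-mAb, which the series title names as a collagen VI antibody, after that diet. The mice of the diet groups are stated to be male on a C57BL/6 background. They went back to a normal diet a week before the first immunization and were injected at week 21. Apoe carries cholesterol in lipoproteins, and mice without it develop atherosclerosis. The sources used here do not say how many mice entered a sample.

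No label or file header ties a barcode suffix to a sample, so it is not known which genotype, diet or treatment library 2 or library 3 holds. Each library is a single preparation, no test between them is possible, and no value below can be read as an effect of diet, genotype or antibody. Apoe itself, the gene deleted in 3 of the 4 groups, stood at 863 CPM in library 2 (CPM are UMIs per 1000000; exact 95% interval 855 to 871), at 736.5 in library 3 (interval 730 to 743), at 29.8 in library 1 and at 29800.0 in library 4. Libraries 2 and 3 were thus alike in Apoe to within a log2 ratio of 0.23, and both lay far from libraries 1 and 4. All intervals given are exact (Poisson for levels, Clopper-Pearson for shares and ratios) and cover counting error only.

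Median depth per gated cell was 12506 UMIs in library 2 and 13954.5 in library 3, with medians of 3140 and 3186.5 detected genes and 3.63% and 4.24% mitochondrial UMIs. The gated cells gave 55257376 and 62656310 UMIs in all, so 1 UMI was worth 0.0181 and 0.0160 CPM. Both sets of cells carried the defining macrophage genes: Lyz2 (lysozyme) was at 41490.0 and 49070.0 CPM, Itgam (CD11b) at 1296 and 1160 CPM, Csf1r (the receptor of the macrophage growth factor) at 587 and 423 CPM, Cd68 at 292 and 334 CPM and Mertk at 124 and 104 CPM in libraries 2 and 3. Gated cells of the 2 libraries shared 4 barcode sequences. No doublet caller was applied beyond the gate; cells above 30000 UMIs numbered 61 and 60.

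The peritoneal cavity is known to hold 2 main kinds of macrophage. Large peritoneal macrophages are long-lived resident cells that depend on the transcription factor GATA6, carry the phosphatidylserine receptor TIMD4 and are low in MHC class II. Small peritoneal macrophages derive from blood monocytes, carry the chemokine receptor CCR2, depend on IRF4 and are high in MHC class II, and monocyte-derived cells can take on resident features over time. MHC class II molecules present peptides from engulfed proteins to CD4 T cells.

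Macrophages of library 2 stood higher in genes of the second kind and those of library 3 in genes of the first. Library 2 was higher in MHC class II genes and their master regulator Ciita, in the chemokine receptor Ccr2, in the chitinase-like protein Chil3 and in interferon-gamma GTPases. Library 3 was higher in the B cell-attracting chemokine Cxcl13, in Timd4 and other resident genes such as Vsig4, Ltbp1 and Garnl3, and in prostacyclin synthase (Ptgis). Of 5415 genes at 20 CPM or more in the higher library, 89 (1.64%) were at least 2-fold higher in library 2 and 63 (1.16%) at least 2-fold higher in library 3. A change of at least 4-fold was seen for 13 genes in the direction of library 2 and for 20 in the direction of library 3. The median log2 ratio of library 2 over library 3 was 0.14 over all genes counted, and the central 90% of ratios ran from -0.37 to 0.64. With ratios centred on that median, the counts became 63 and 82, and with trimmed-mean (TMM) scaling 64 and 81, so the share of 2-fold genes that lay on the side of library 2 went from 58.6% to 43.4% and 44.1%. Which side holds more genes therefore depends on the scaling. Both scalings lower all ratios by a constant, so the 63 and 64 genes are among the 89 by construction.

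**Figure D1:**
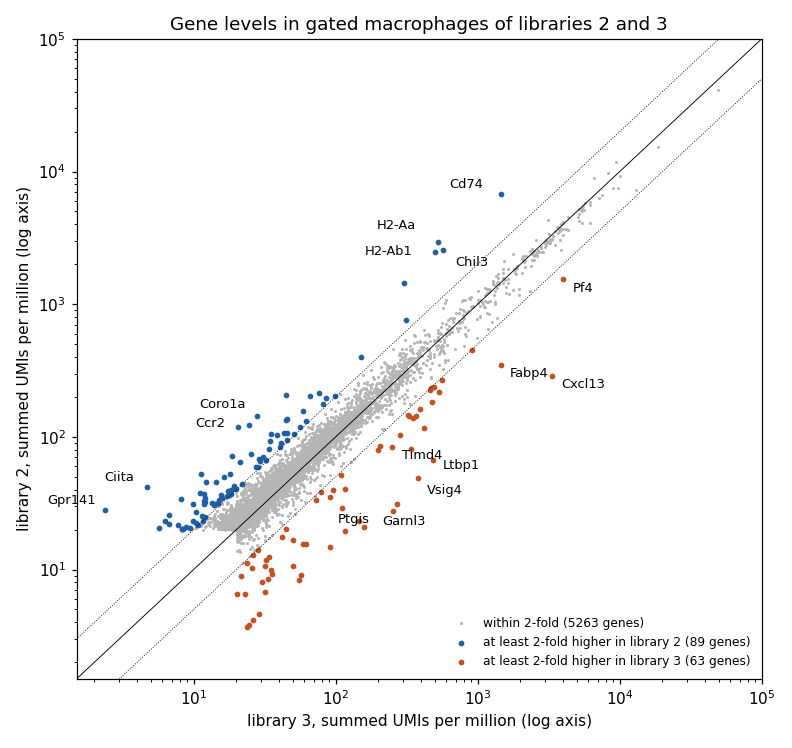
Level of each gene in gated macrophages of library 3 (horizontal) and library 2 (vertical), in CPM on log axes, 1 point per gene for the 5415 genes counted. The solid line marks equal levels and the dotted lines a 2-fold difference; class II genes and Chil3 lie above the upper line, and Cxcl13, Ptgis and Garnl3 lie farthest below the lower line.

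The pair of libraries was chosen by the measured levels of Chil3, H2-Aa, Cxcl13 and the other genes of this same contrast, so these counts and ratios are a description and support nothing further. Just inside the 2-fold limit lay Irgm1 (44.3 against 21.99 CPM, log2 ratio 1.01) on the side of library 2 and Cd9 (452 against 912 CPM, -1.01) on the side of library 3. Just outside it lay Dtx3l (64.4 against 32.2 CPM, 0.997) and Gata6 (64.4 against 128 CPM, -0.99).

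Antigen presentation by MHC class II had the highest median ratio of the 35 gene lists plotted, toward library 2. H2-Aa, the alpha chain of the class II molecule I-A, was at 1554 CPM in library 1, 2964 CPM in library 2 (interval 2949 to 2978), 528 CPM in library 3 (interval 522 to 533) and 1134 CPM in library 4. Library 2 was the highest and library 3 the lowest of the 4, with a log2 ratio between them of 2.49 (2.47 to 2.51). H2-Ab1, the beta chain of the same molecule, was at 2478 and 498 CPM in libraries 2 and 3 (log2 ratio 2.31). H2-Eb1, a beta chain of the class II molecule I-E, was at 1439 and 301 CPM (2.26). The invariant chain Cd74, which holds the peptide groove until the endosome, was at 6732 and 1464 CPM (2.20). The peptide exchange factors H2-DMa and H2-DMb1 were at 398 against 151 CPM (1.39) and 203 against 66.0 CPM (1.62).

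Ciita, the coactivator that switches on all of these genes, was at 41.8 CPM in library 2 (interval 40.1 to 43.5) and 4.68 CPM in library 3 (interval 4.16 to 5.24), with 24.2 CPM in library 1 and 10.9 CPM in library 4. Its log2 ratio of 3.16 (2.98 to 3.34) was second only to that of Gpr141 among the genes counted. Of the 18 symbols of the class II list, 10 reached 20 CPM. Of these, 7 were at least 2-fold higher in library 2 and 0 in library 3, beside 1.64% and 1.16% of all genes counted. The list's median log2 ratio was 1.91, against 0.14 over all genes. The other 3 lay close to 0: the protease Ctss at 0.13, the costimulator Cd86 at 0.03 and the promoter-binding subunit Rfxap at -0.19. Class I genes differed less. Of 18 on that list, the peptide transporter Tap1 (90.7 and 41.4 CPM, 1.13) and the class I coactivator Nlrc5 (20.1 and 8.30 CPM, 1.27) were past 2-fold, and the heavy chain genes H2-K1 and H2-D1 had ratios of -0.02 and -0.20.

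The class II genes share a promoter layout, in which an X box bound by the RFX complex is followed by a Y box bound by NF-Y, and CIITA docks onto both. Promoter stretches of 3 of these genes are shown because their genes lay together in one direction; capitals mark each match to the Y box core GATTGG, searched on both strands, so that CCAATC is the same motif read on the other strand. Sequences are from RefSeq on GRCm38.p6, from 5′ to 3′ on the strand of the gene: H2-Aa from the minus strand of chr17:34287817-34287922, H2-Eb1 from the plus strand of chr17:34305757-34305887 and H2-DMb1 from the plus strand of chr17:34153079-34153184.
H2-Aa: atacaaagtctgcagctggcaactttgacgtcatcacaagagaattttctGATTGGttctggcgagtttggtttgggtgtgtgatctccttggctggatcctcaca
H2-Eb1: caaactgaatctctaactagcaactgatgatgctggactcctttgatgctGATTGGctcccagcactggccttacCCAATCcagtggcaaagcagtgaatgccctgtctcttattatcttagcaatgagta
H2-DMb1: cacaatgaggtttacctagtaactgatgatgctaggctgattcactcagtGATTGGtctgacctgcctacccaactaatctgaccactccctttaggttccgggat
The first match begins 49 bases before the annotated start of H2-Aa, 60 before that of H2-Eb1 and 62 before that of H2-DMb1. Of the 7 class II genes at least 2-fold higher in library 2, 4 had a promoter window available (250 bases before to 50 after the start). A gene with several windows was counted if any of them matched. Each of the 4 genes had a window with the motif, which 4 of their 5 windows held, against 18.2% of all 27025 genes with a window. Over all genes at least 2-fold higher in library 2, 17 of 68 with a window held it, and over those higher in library 3 13 of 47 (27.7%), beside 22.9% of the genes counted. A match is a description of these letters and not of binding.

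On the map, 8 of the 89 genes higher in library 2 lay in the major histocompatibility region of chromosome 17: H2-DMa, H2-DMb1, Tap1, H2-Ab1, H2-Aa, H2-Eb1, Aif1 and Lst1. Together they spanned 34119541 to 35188439 on GRCm38. This stretch held 30 genes counted, and 0 of them were at least 2-fold higher in library 3, beside 1.16% of all genes counted. Its ends were set by the 8 genes themselves and are not those of the region. The number of such genes inside it was therefore partly fixed in advance.

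B cells carry class II at high levels and were present beside the macrophages, so their RNA was measured in the gated cells. The summed level of 13 B cell genes that the gate did not use, among them Igkc, Ighm and Cd79b, was 39.0 CPM in library 2 and 18.1 CPM in library 3, and Mzb1 was at 0 in both. In cells of the B cell gate (at least 2 Cd79a UMIs, no Adgre1 UMI and no Cd3 UMI; 564 and 301 cells), H2-Aa had 16418 UMIs beside 9511 of Cd79b in library 2 and 6013 beside 3476 in library 3. At those proportions, the Cd79b UMIs of the gated macrophages would go with 0.358% of their H2-Aa UMIs in library 2 and 0.628% in library 3. The same figure was 0.497% and 0.762% for Cd74, 0.774% and 2.11% for Ciita, 2.37% and 3.75% for Coro1a and 3.15% and 3.02% for Plac8. Dendritic cell genes stood at 221 and 216 CPM in sum, nearly all of it Bst2 (217 and 207 CPM); Flt3, which defines dendritic cells, had 14 and 30 UMIs and Cd209a 72 and 399.

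Genes of small peritoneal and monocyte-derived macrophages were higher in library 2 as well, though not all of them. Ccr2 was at 119 CPM in library 2 (interval 116 to 122) and 20.6 CPM in library 3 (interval 19.5 to 21.7), beside 185 CPM in library 1 and 37.0 CPM in library 4. Its log2 ratio was 2.53 (2.44 to 2.62). Plac8, a gene of monocytes and lymphocytes, was at 207 and 44.6 CPM (2.22). The transcription factor Irf4 was at 27.1 and 10.4 CPM (1.39), and the lectin receptors Clec4a1 and Clec4a2 at 157 against 59.2 CPM (1.40) and 34.5 against 12.1 CPM (1.51).

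Of 15 members of that list at 20 CPM, 8 were at least 2-fold higher in library 2 and 0 in library 3, with a median of 1.39. The shares over all genes counted were 1.64% and 1.16%, so the 0 says little. Retnla, a secreted protein of alternatively activated and monocyte-derived peritoneal macrophages, was not among them: it was at 961 CPM (953 to 969) and 1045 CPM (1037 to 1053) in libraries 2 and 3, and at 9261 CPM in library 1. Clec10a went the other way, at 32.6 and 60.8 CPM (-0.90). Folr2, the folate receptor beta, and Mrc1, the mannose receptor, were higher in library 2 (93.2 against 34.6 CPM, 1.43, and 64.4 against 21.2 CPM, 1.60), and both were higher still in library 1, at 397 and 407 CPM. Axl, a receptor kinase for the uptake of dying cells, was at 52.6 and 11.3 CPM (2.21), while Timd4, another receptor for that uptake, had the opposite sign.

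Chil3, a secreted chitinase-like protein also called Ym1, was at 2581 CPM in library 2 (interval 2567 to 2594) and 571 CPM in library 3 (interval 565 to 577), beside 1225 CPM in library 1 and 142 CPM in library 4. Its log2 ratio was 2.18 (2.16 to 2.19). It is a minus-strand gene at chr3:106147554-106167564 on GRCm38. Its near copy Chil4 had 0 UMIs in each of the 4 libraries, and reads that both genes could give may be counted under Chil3 or lost. Chil3 is often read as a gene of alternative activation. Of 11 members of that list at 20 CPM, Chil3, Mrc1 and Irf4 were at least 2-fold higher in library 2 and 0 in library 3. The shares over all genes counted were 1.64% and 1.16%. The list's median was 0.12, near the 0.14 of all genes. A ratio above 0 was seen for 7 members, and most genes counted had one, with a lower quartile of -0.02. Arg1 (arginase 1) had a ratio of 0.79, the eosinophil-attracting chemokine Ccl24 -0.75, Retnla -0.12 and the interleukin-4 receptor Il4ra 0.12. Lyve1, a hyaluronan receptor that the series title names, stayed under the 20 CPM limit in both libraries, at 14.3 and 18.9 CPM (-0.40), and was at 448 CPM in library 1 and 18.3 CPM in library 4.

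Interferon-gamma induced genes were higher in library 2 by a smaller margin. Of 12 members at 20 CPM, 6 were at least 2-fold higher in library 2, beside 1.64% of all genes counted. The list's median was 0.98, against 0.14 over all genes. All 12 had a ratio above 0, but so did most genes, whose lower quartile was -0.02. Iigp1, a GTPase that attacks the vacuoles of intracellular parasites, was at 103 CPM in library 2 (interval 100.6 to 106) and 38.5 CPM in library 3 (interval 36.9 to 40.03), beside 28.0 and 36.3 CPM in libraries 1 and 4, so library 2 stood apart from the other 3 (log2 ratio to library 3 of 1.42). Its relatives Irgm2, Igtp, Irgm1 and Gbp2 had ratios of 1.15, 1.12, 1.01 and 1.05. Igtp, Irgm1, Gbp2 and Tap1 lie near the limit and fell below 2-fold under some of the other settings tried. Ifngr1, a chain of the interferon-gamma receptor, was at 212 and 108 CPM (0.98). Type I interferon genes had a smaller median, 0.48, with Ly6e highest at 0.81. Of 16, 0 were past 2-fold in either direction, beside 1.64% and 1.16% of all genes counted.

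Promoter stretches of 4 of these genes are shown because they carry the same short element; capitals mark matches to the interferon-stimulated response element core GAAANNGAAA, searched on both strands, where overlapping matches run together. They are Igtp (chr11:58199482-58199571, plus strand), Irgm2 (chr11:58214873-58214962, plus strand), Irgm1 (chr11:48871395-48871490, minus strand) and Gbp2 (chr3:142620564-142620653, plus strand, where the match reads on the other strand), from RefSeq on GRCm38.p6.
Igtp: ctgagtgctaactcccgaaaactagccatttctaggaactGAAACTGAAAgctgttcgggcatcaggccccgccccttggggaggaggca
Irgm2: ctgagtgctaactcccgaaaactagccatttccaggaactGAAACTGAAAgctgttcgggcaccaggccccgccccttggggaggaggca
Irgm1: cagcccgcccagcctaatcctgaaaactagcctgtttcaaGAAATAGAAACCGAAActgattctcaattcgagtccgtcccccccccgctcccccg
Gbp2: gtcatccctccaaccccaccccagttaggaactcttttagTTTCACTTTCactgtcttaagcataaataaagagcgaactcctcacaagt
The element occurred in the window of all 4 genes of the 6 that had one, against 3.99% of all genes with a window and 4.43% of the genes counted. Among genes at least 2-fold higher in library 2 it occurred in 9 of 68 (13.2%), which besides these 4 were Aif1, Aoah, Cd300c2, Ldlrad3 and Rnase6. Among those higher in library 3 it occurred in 1 of 47 (2.13%), the gene Tox2. Igtp and Irgm2 are neighbours with near-identical promoter letters, so they are not independent examples.

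The remaining leading genes on the side of library 2 have mixed roles. Gpr141, an orphan G protein-coupled receptor, had the highest ratio of the genes counted: 27.9 CPM in library 2 (interval 26.5 to 29.3), 2.39 CPM in library 3, and only 2.27 and 3.28 CPM in libraries 1 and 4, a log2 ratio of 3.54. Library 2 alone was high. Coro1a, an actin regulator of leukocytes, was at 144 and 27.9 CPM (2.37). Napsa, an aspartic protease, was at 71.6 and 18.7 CPM (1.94), and Plxnd1, a semaphorin receptor, at 25.8 and 6.66 CPM (1.96).

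Lipid synthesis genes lay on the same side. Scd2, a fatty acid desaturase, was at 34.2 and 8.17 CPM (2.06), the sterol enzyme Fdps at 21.1 and 8.87 CPM (1.25) and the sterol-sensing factor Srebf2 at 34.8 and 15.9 CPM (1.13). Of 8 sterol and fatty acid synthesis genes at 20 CPM these 3 were past 2-fold, beside 1.64% of all genes counted. The median over the 8 was 0.70. A list of cholesterol efflux genes and targets of the nuclear receptor LXR had 18 genes at 20 CPM. Past 2-fold were Scd2, already counted above, Lpl (lipoprotein lipase, 765 and 314 CPM, 1.28) and Apoc4 (105 and 35.3 CPM, 1.57). The exporters Abca1 and Abcg1 had ratios of 0.00 and 0.27. Apoc4 overlaps other apolipoprotein C annotations, and its counts may include their reads.

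DNA replication genes differed without a matching difference in mitotic genes. The helicase subunits Mcm2, Mcm4, Mcm5, Mcm6 and Mcm7, which load onto DNA before S phase, had ratios of 1.498, 1.02, 1.45, 1.16 and 1.11, with Mcm5 at 32.7 and 11.9 CPM. The mitotic markers Mki67 (36.4 and 37.1 CPM), Top2a (49.1 and 39.7 CPM) and Birc5 (25.4 and 24.4 CPM) had ratios of -0.03, 0.31 and 0.06. Of 18 cell cycle genes at 20 CPM, those 5 helicase genes were past 2-fold, beside 1.64% of all genes counted toward library 2. Cells with a UMI of Mki67 or Top2a made up 13.9% of gated cells in library 2 and 12.3% in library 3, and the log2 ratio of Mcm5 was 0.99 in those cells and 1.84 in the cells without either.

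**Figure D2:**
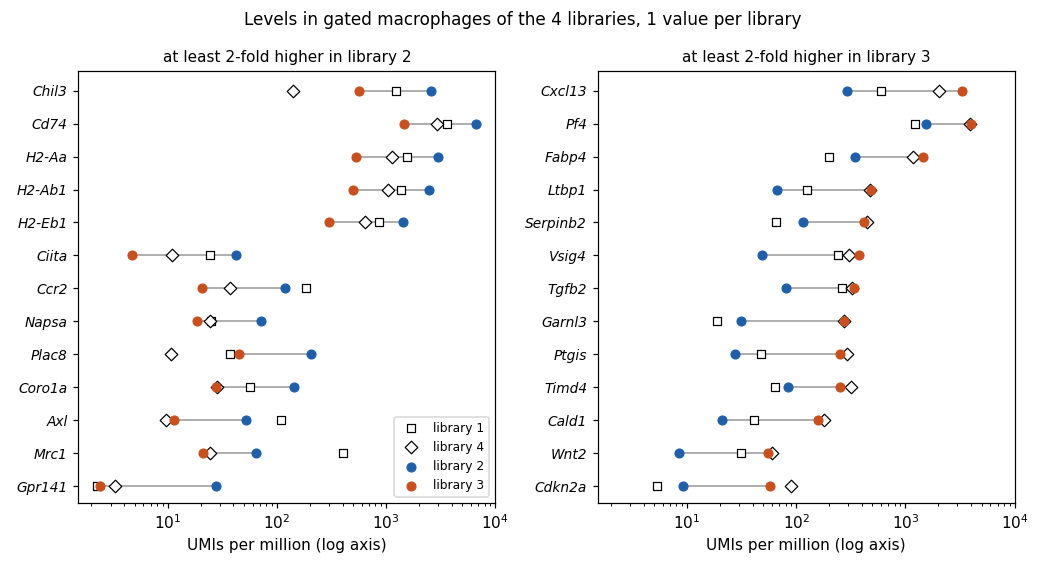
Level of 26 genes in gated macrophages of each library, in CPM on a log axis; filled circles are libraries 2 and 3, joined by a line, and open symbols are libraries 1 and 4, with 1 value per library and no error between libraries. For genes on the right, library 4 lies at or near library 3 for most, as for Garnl3 (274 and 272 CPM); on the left, library 1 lies above library 2 for Ccr2, Axl and Mrc1.

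On the side of library 3, Cxcl13 had the largest difference of the genes counted. The chemokine, which draws B-1 cells into body cavities, was at 592 CPM in library 1, 289 CPM in library 2 (interval 285 to 294), 3322 CPM in library 3 (interval 3308 to 3336) and 2019 CPM in library 4. Library 3 was the highest and library 2 the lowest, with a log2 ratio of -3.52 (-3.55 to -3.50), or 11.5-fold. Cxcl13 lies on chromosome 5 from 95956951 to 95961068. Pf4, platelet factor 4, another chemokine that macrophages make, was at 1537 and 3998 CPM (-1.38). Of 7 chemokines at 20 CPM, these 2 were at least 2-fold higher in library 3, beside 1.16% of all genes counted. A ratio below 0 was seen for 4, and the median was -0.56, against 0.14 over all genes. The others were Ccl24 at -0.75, Cxcl2 at -0.56, Cxcl16 at 0.21, Ccl9 at 0.28 and Ccl6 at 0.47. The platelet genes Ppbp and Gp9 had 6 and 0 UMIs in library 2 and 1 and 1 in library 3.

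Other genes that mark large peritoneal macrophages were also higher in library 3. Garnl3 was at 31.2 and 272 CPM in libraries 2 and 3 (-3.12). Vsig4, a complement receptor that clears opsonised particles, was at 48.7 and 380 CPM (-2.96). Ltbp1, which stores latent TGF-beta in the matrix, was at 66.9 and 488 CPM (-2.86), and Tgfb2, its cargo, at 81.4 and 337 CPM (-2.05). Timd4 was at 63.8 CPM in library 1, 84.0 CPM in library 2 (interval 81.6 to 86.4), 251 CPM in library 3 (interval 247 to 255) and 321 CPM in library 4, a log2 ratio of -1.58 between libraries 2 and 3. Libraries 3 and 4 were thus high in Timd4 and libraries 1 and 2 low.

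The large peritoneal macrophage list had 28 members at 20 CPM, with a median of -1.002. Of these, 14 were at least 2-fold higher in library 3, Cxcl13 among them, and 1, Mrc1, in library 2. The shares over all genes counted were 1.16% and 1.64%. The fatty acid carrier Fabp4 (347 and 1455 CPM, -2.07), the plasminogen activator inhibitor Serpinb2 (116 and 418 CPM, -1.85), coagulation factor F5 (182 and 474 CPM, -1.38), the scavenger receptor Marco (144 and 365 CPM, -1.34) and P-selectin (Selp, 163 and 393 CPM, -1.27) were among the 14. Gata6, on which the type depends, was just under the limit at 64.4 and 128 CPM (-0.99), and Adgre1, which the gate used, was at 560 and 982 CPM (-0.81). Several defining genes hardly differed: Icam2 had a ratio of 0.00, Alox15 -0.15, Saa3 -0.28 and Fn1 0.32. The libraries thus did not differ in all genes of this type.

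Other leading genes of library 3 were Ptgis, which makes prostacyclin (27.6 and 252 CPM, -3.19), Cald1 (caldesmon, an actin-binding protein; 21.1 and 158 CPM, -2.90), the secreted signal Wnt2 (8.40 and 55.1 CPM, -2.71), the WNT co-receptor Ryk (6.805 and 31.6 CPM, -2.21), the ectonucleotidase Nt5e (10.7 and 50.1 CPM, -2.22), Cav1 (caveolin; 3.71 and 23.6 CPM, -2.67) and Tox2 (4.63 and 28.6 CPM, -2.63). Cdkn2a, the locus of the cell cycle inhibitors p16 and p19, was at 9.10 CPM in library 2 (interval 8.33 to 9.93), 57.5 CPM in library 3 (interval 55.6 to 59.4), 5.30 CPM in library 1 and 89.5 CPM in library 4, a log2 ratio of -2.66. Both proteins come from that locus and its counts do not separate them. Cdkn1a, a damage-induced inhibitor of the same kind, was at 110 and 122 CPM (-0.16).

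Hdc, which makes histamine, was at 3.84 and 24.4 CPM (-2.67) in libraries 2 and 3. Of the other mast cell genes, Cma1 had 71 and 174 UMIs, Mcpt4 22 and 75 and Cpa3 19 and 50, and Ms4a2 had 0 and 1, against 212 and 1528 UMIs of Hdc. The part of mast cell RNA in the Hdc difference was not tested. Other neighbouring immune cells left few UMIs in the gate: T cell genes summed to 2.32 and 1.90 CPM, natural killer cell genes to 0.561 and 2.76 CPM, and stromal and mesothelial genes to 0.290 and 0.207 CPM.

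A few glucocorticoid targets and a metallothionein were higher in library 3 and did not follow the resident genes in library 4. Fkbp5, a chaperone induced by glucocorticoids, was at 117 CPM in library 1, 51.8 CPM in library 2 (interval 49.9 to 53.7), 109 CPM in library 3 (interval 106 to 111) and 11.01 CPM in library 4 (log2 ratio between libraries 2 and 3 of -1.07). Zbtb16 was at 11.7 and 32.3 CPM in libraries 2 and 3 (-1.46) and 12.7 CPM in library 4, and Mt1 at 218 and 530 CPM (-1.28) and 297 CPM in library 4. Of 10 genes on that list, these 3 were past 2-fold, beside 1.16% of all genes counted toward library 3. Tsc22d3, Per1 and Klf9, also glucocorticoid targets, had ratios of -0.09, -0.12 and -0.10.

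**Figure D3:**
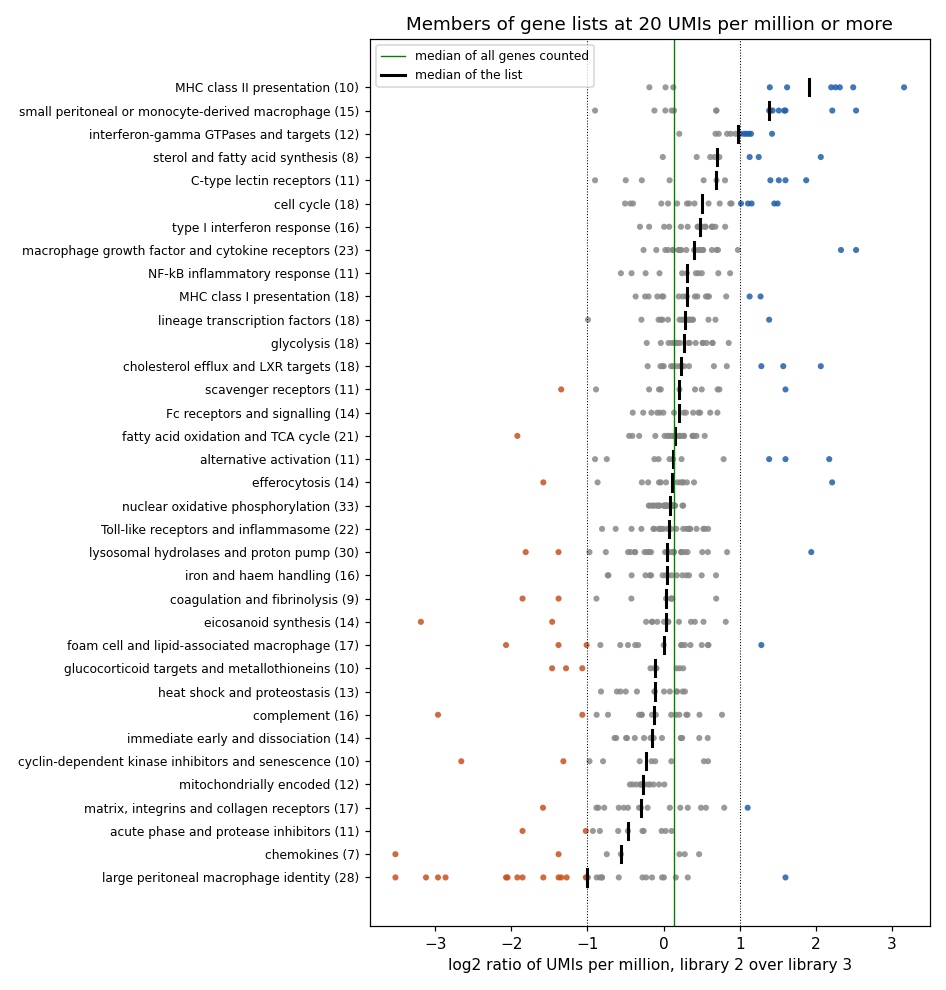
Log2 ratio of library 2 over library 3 for the members of 35 gene lists that reached 20 CPM, 1 point per gene, with the number of members in parentheses. Black bars are list medians, the green line is the median of all genes counted (0.14) and dotted lines mark 2-fold; MHC class II presentation has the highest median (1.91) and large peritoneal macrophage identity the lowest (-1.002).

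Several lists had no gene past 2-fold. Over all genes counted only 1.64% and 1.16% were past it toward library 2 and library 3, so 0 in a short list says little. Of 33 nuclear oxidative phosphorylation genes 0 were past 2-fold, with ratios from -0.19 to 0.26. The same count of 0 held for 22 Toll-like receptor and inflammasome genes, 14 Fc receptor and signalling genes, 18 glycolysis genes, 11 NF-kB genes, 14 immediate early genes and 16 iron and haem genes. Their members still ranged widely, from -0.81 to 0.58 in the Toll-like receptor list, -0.56 to 0.87 in the NF-kB list and -0.73 to 0.69 in the iron list. Of 16 complement genes, 2 were at least 2-fold higher in library 3, Vsig4 among them, while C1qa, C1qb and C1qc had ratios of -0.29, -0.10 and -0.32. Mitochondrially encoded transcripts had a median of -0.27 over 12 genes.

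Whether these differences lay in a few cells or in most was read after each cell had been thinned at random to 3000 UMIs, which left out 55 and 24 shallower cells. An H2-Aa UMI was found in 91.0% (90.1 to 91.9) of 4156 cells of library 2 and 46.2% (44.7 to 47.7) of 4288 cells of library 3. The median cell had 8 H2-Aa UMIs in library 2 and 0 in library 3, and only 4.03% of the cells of library 3 lay above the median of library 2. In B cell gate cells, which make class II themselves, the shares were 99.8% and 99.6%, and in T cell gate cells, which lack it in the mouse, 26.9% (25 of 93) and 9.68% (12 of 124), so class II RNA in cells that should not make it was also higher in library 2. Median raw depth in those T cell gates was 5155 and 4071 UMIs.

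A Chil3 UMI was found in 76.3% (75.03 to 77.6) of gated cells of library 2 and 30.2% (28.9 to 31.6) of those of library 3, with medians of 4 and 0 UMIs per cell. The highest cell of library 2 held 81 Chil3 UMIs of 3000. In B cell gate cells, which should lack Chil3, the shares were 25.8% and 4.74%. Chil3 RNA in cells that should not make it thus differed in the same direction as in the macrophages.

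Cxcl13 had the reverse pattern. It had a UMI in 8.45% (7.62 to 9.33) of gated cells of library 2 and 61.9% (60.4 to 63.4) of those of library 3, and in 2.04% and 17.4% of B cell gate cells. The cells that held it varied widely: in library 3 the median was 2 UMIs, the mean 9.91 and the highest cell had 277 of 3000. A Timd4 UMI was found in 12.7% (11.7 to 13.7) and 39.5% (38.0 to 41.0) of gated cells, a Gata6 UMI in 15.8% and 30.3%, and a Ccr2 UMI in 19.0% (17.8 to 20.2) and 2.82% (2.35 to 3.36). In B cell gate cells Timd4 was at 0.186% and 2.77% and Gata6 at 0 of 539 (exact upper limit 0.682%; 3 counts of 539 would be 0.557%) and 0.395%. For Ccr2 the B cell gate gave 1.30% and 0.395%. Without thinning, the Timd4 shares were 18.05% and 63.5% and the Ccr2 shares 32.4% and 5.84%.

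**Figure D4:**
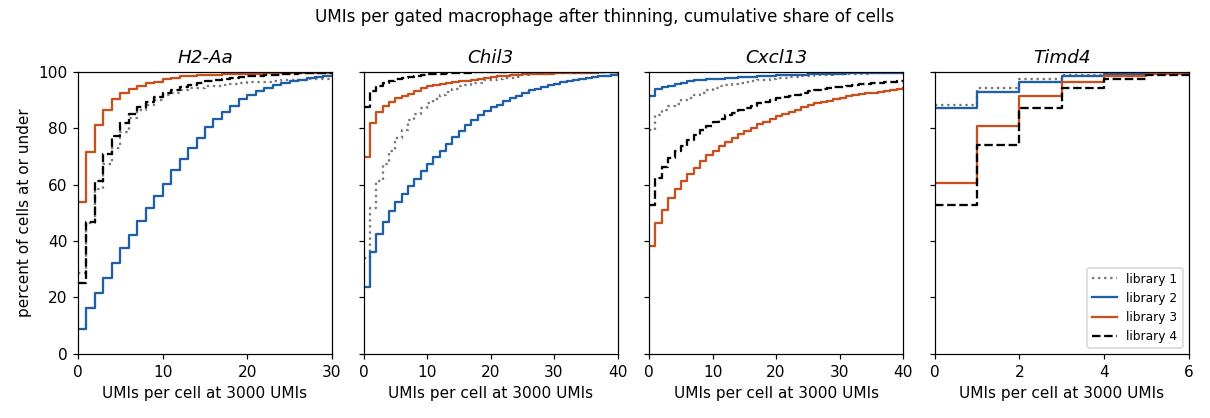
Cumulative percent of gated cells (vertical) at or under a number of UMIs of H2-Aa, Chil3, Cxcl13 and Timd4 per cell (horizontal) after each cell was thinned to 3000 UMIs, 1 line per library. The line of library 2 lies lowest for H2-Aa and Chil3, so its cells hold more UMIs, and the line of library 3 lies lowest for Cxcl13; for Timd4, libraries 3 and 4 lie below libraries 1 and 2.

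Shares of cells with a UMI of some of these genes differed between cells with and without a UMI of another. In library 2, a Chil3 UMI was found in 45.0% of cells with a Cxcl13 UMI and in 79.2% of cells without one, and in library 3 in 27.6% and 34.5%. A Timd4 UMI was found in 53.6% of Cxcl13-positive and 8.91% of Cxcl13-negative cells of library 2, and in 47.2% and 27.1% in library 3. Cells with both a Timd4 and a Ccr2 UMI made up 0.818% of gated cells in library 2 and 0.233% in library 3. These shares are descriptions of cells of 1 library each.

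The 2 libraries hold different proportions of Timd4-positive and Ccr2-positive cells, so levels were also compared inside such sets of cells. Among cells with a Timd4 UMI, 760 in library 2 and 2737 in library 3, the class II and Chil3 differences were nearly as large as overall: the log2 ratio was 2.43 (2.40 to 2.46) for H2-Aa, 2.92 for Ciita and 1.93 for Chil3. Genes higher in library 3 differed less there, with -1.96 for Cxcl13, -1.49 for Vsig4, -1.52 for Garnl3 and -1.82 for Ptgis, against -3.52, -2.96, -3.12 and -3.19 in all gated cells. Of the 89 genes higher in library 2, 80 were at least 2-fold higher among the Timd4-positive cells. Of 62 genes higher in library 3 (Timd4 itself left out) 25 were. Over all 5604 genes at 20 CPM in these cells, 111 were at least 2-fold higher in library 2 and 30 in library 3. The 89 and 63 genes came from sums that include these cells, and their counts inside sets of cells used no minimum level. Such counts are therefore partly set in advance. Among cells without a Timd4 UMI the ratio of H2-Aa was 2.01 and that of Cxcl13 -4.26.

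Cells with a Ccr2 UMI gave another picture. There were 1364 in library 2 and 252 in library 3, with median depths of 12515.5 and 14978.5 UMIs. Inside them H2-Aa had a log2 ratio of 0.61 (0.58 to 0.64), Ciita 0.68, Coro1a 0.27 and Chil3 1.06, and 11 of 88 genes higher in library 2 (Ccr2 left out) were past 2-fold. Their H2-Aa level was 3698 CPM in library 2 and 2417 CPM in library 3, against 2592 and 395.5 CPM in cells without a Ccr2 UMI. Iigp1 had a larger ratio there, 2.38 (2.07 to 2.73), than in all gated cells (1.42). Of the 63 genes higher in library 3, 39 were past 2-fold, with Cxcl13 at -3.29 and Vsig4 at -2.88. Over all 5589 genes at 20 CPM in these cells, 14 were at least 2-fold higher in library 2 and 85 in library 3. Without the Ccr2-positive cells, 87 of 88 and 57 of 63 genes were past 2-fold, and H2-Aa stood at 2.71. Over all 5423 genes at 20 CPM in the remaining cells, the counts were 90 and 59.

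Cells were also divided by Gata6, Retnla and cycling genes. Among 1881 and 3117 cells with a Gata6 UMI, 80 of 89 and 56 of 63 genes were past 2-fold, with H2-Aa at 2.50 and Cxcl13 at -3.04. Over all 5427 genes at 20 CPM in them, 77 and 60 were. Among cells with a Retnla UMI, 43.3% and 43.6% of the gate, 68 of 89 and 58 of 63 were past 2-fold, beside 67 and 56 of all 5527. In cells with a UMI of Mki67 or Top2a, 585 and 529 in number, 53 of 89 and 55 of 63 were past 2-fold, beside 59 and 55 of all 5716. Genes higher in library 2 had smaller ratios there, with H2-Aa at 1.82, Ciita at 2.21, Ccr2 at 1.30 and Chil3 at 1.24, while Cxcl13 stood at -3.28.

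**Figure D5:**
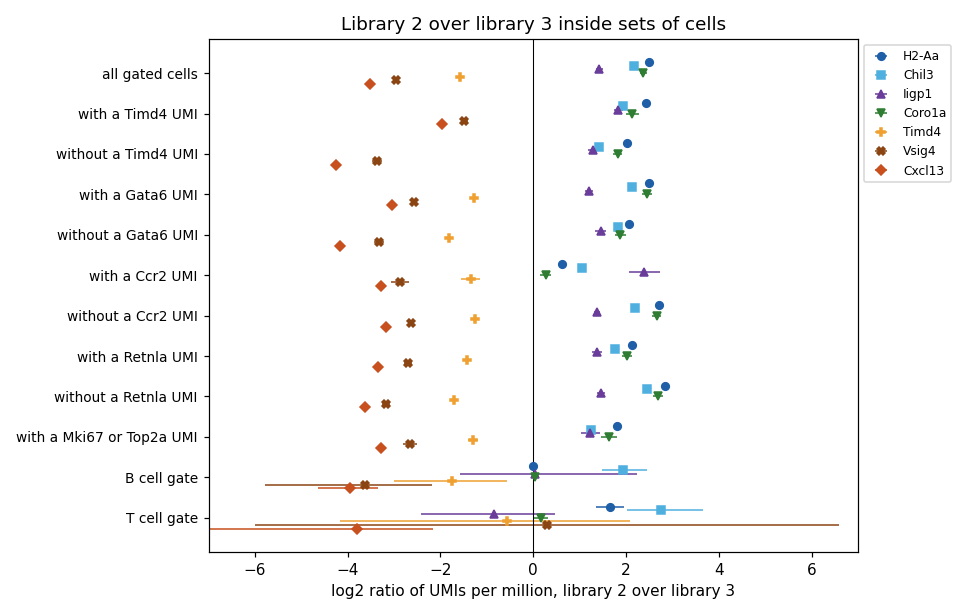
Log2 ratio of library 2 over library 3 (horizontal) for 7 genes inside sets of cells (vertical), with exact 95% intervals for counting error; the Cxcl13 interval in the T cell gate runs past the axis. H2-Aa lies at 2.43 and 2.50 in cells with a Timd4 or Gata6 UMI and at 0.61 in cells with a Ccr2 UMI; Cxcl13 lies below 0 in every set.

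Ratios in the B cell gate show which differences reach cells that should not make the RNA. There Cxcl13 stood at -3.95 (-4.64 to -3.35), Fabp4 at -1.93 (-2.51 to -1.37) and Chil3 at 1.94 (1.49 to 2.46), and these intervals hold the macrophage ratios of the same genes. That did not hold for Pf4, which stood at -1.87 (-2.13 to -1.61) there and at -1.38 in the macrophages. H2-Aa at 0.00, Cd74 at -0.09, Ciita at 0.03 and Coro1a at 0.03, all of which B cells express, lay within 0.1 of equal levels. Plac8, found in 94.2% and 88.1% of thinned B cell gate cells, did not, at 0.60 (0.53 to 0.66). Of the 89 genes higher in library 2, 17 were at least 2-fold higher in the B cell gate. Of the 63 higher in library 3, 33 were. These counts used no minimum level in that gate. Some of the genes had few UMIs there, such as Ptgis (1 and 8 in libraries 2 and 3), Garnl3 (2 and 9) and Vsig4 (4 and 20). Over all 5249 genes at 20 CPM in that gate, 35 and 34 were past 2-fold. With unlike limits, these counts cannot be set directly against the 17 and 33. The part of free RNA in these values was not tested.

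Libraries 1 and 4 played no part in choosing the genes. For 87 of the 89 genes higher in library 2, the level in library 4 lay nearer, on the log2 scale, to library 3 than to library 2; the exceptions were Clec4a2 and Igfbp4. For the 63 genes higher in library 3, library 4 lay nearer to library 3 for 55, and the 8 others were Ttc39c, Zbtb16, Fkbp5, Mt1, Lrg1, Cpne8, Mbd1 and a gene model without a symbol. Library 1 lay nearer to library 2 for 66 of the 89 genes and for 39 of the 63. The same shares over all 5415 genes counted were not computed, so these counts have no baseline and do not measure how alike the libraries are. Chil3, at 1225 CPM in library 1 and 142 CPM in library 4, was among the genes for which library 4 went below library 3, and Ttc39c, at 19.4, 116 and 20.5 CPM in libraries 2, 3 and 4, was high in library 3 alone.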

How the data were processed

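Single-cell RNA was measured in 4 libraries of sorted F4/80+ peritoneal cells. The values are UMI counts in the 1 matrix that the authors deposited, which spans 31253 genes and 26811 barcodes. Cell Ranger 5.0.1 wrote it, per the file headers. CASAVA 1.8, Seurat and the mm10 build are named without a role in the submitters' processing notes. Cell calling and any removal of free RNA were not given in these sources. Barcode suffixes were treated as libraries and never assigned to a group. UMIs were summed over gated cells per library and scaled to CPM. Log2 ratios used a prior count of 0.5, and a gene was counted at 20 CPM or more in the higher library. With 1 library a side no p-value was computed. Shares used cells thinned to 3000 UMIs, and no doublet caller was run. The code was tested on simulated data. TMM factors came from edgeR 4.0.16 and intervals from scipy 1.17.1. The text names the 15 highest and 15 lowest ratios among genes with a symbol, the markers Adgre1, Chil3, H2-Aa and Cxcl13, and members of 45 gene lists. Genes outside these, such as Dtx3l, Igfbp4 and some named for a motif or a position, were picked after their values were seen. Some genes that this rule would name are not reported here. The libraries, members and lists were chosen with earlier results of these data known. Positions are from GENCODE M21 on GRCm38. The closing section gives the effect of 15 alternative settings.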

Additional observations from a re-analysis of the deposited data

How the results depend on the processing

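The count of genes at least 2-fold higher in library 2 (89) and in library 3 (63) followed the minimum level: with 5 CPM it was 190 and 190, with 100 CPM 26 and 31, and with no minimum 1623 and 2288, where genes of few UMIs enter. Under the other 12 settings both counts stayed within 1.5 times, from 63 to 99 for library 2 and from 59 to 82 for library 3; fewest of the 89 were shared with the centred ratios (63) and fewest of the 63 with at least 5 Adgre1 UMIs or with cells thinned to 5000 UMIs (58 each). Of the 77 named genes past 2-fold, each kept its direction in each setting that gave a value, and 64 stayed past 2-fold in all of them; the 13 that did not included Cd9, Fkbp5, Gbp2, Igtp, Irgm1, Lair1, Lrg1, Mcm4, Mcm6, Mcm7, Srebf2 and Tap1. No paired analysis was possible because each group has 1 sample and no library is tied to a group. Genes past 2-fold had at least 1109 UMIs in the higher library. Even so, for 25 of these 152 genes the counting interval of the ratio included the 2-fold limit. With 1 library a side the variation between preparations was not measured.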

Other observations

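Vmn2r26, annotated as a vomeronasal receptor on chromosome 6 from 124024568 to 124065806, was at 14.9 CPM in library 2 (exact 95% interval 13.9 to 15.95) and 91.6 CPM in library 3 (89.3 to 94.0), a log2 ratio of -2.62. Libraries 1 and 4 had 16.6 and 77.1 CPM. Whether its counts come from the receptor's own transcript was not tested. The lysosomal genes Ctsf (6.53 and 22.95 CPM, -1.81) and Cd63 (35.2 and 91.5 CPM, -1.38) were at least 2-fold higher in library 3, while Napsa was higher in library 2 and the other 27 of 30 lysosomal genes counted were within 2-fold.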
